A study of Mus musculus with 12 samples.

Results

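The dermomyotome is the dorsal epithelium of the somite, from which skeletal muscle of the trunk and limbs arises. Its cells carry the paired-box factors *Pax3* and *Pax7*, cells that leave it for the limbs also carry the homeobox factor *Lbx1* and the receptor *Met*, and the homeobox factor *Six4* acts with the co-activator *Eya1* upstream of the muscle-determining factors *Myf5* and *Myod1*. Several of these genes are not restricted to somites: *Pax3* and *Pax7* are also active in the dorsal neural tube and neural crest, *Lbx1* in dorsal spinal cord neurons, *Six4* and *Eya1* in placodes and other mesoderm, and *Met* in many epithelia.

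These 8 genes, of 55141 in the deposited count table, were taken by gene symbol and Ensembl identifier. They were chosen by what is known of the dermomyotome together with results of these libraries, differences in expression between embedding times among them, so their values between embedding times are given as a description. Counts of them that passed the thresholds applied to all genes are part of that description, and no p-value of theirs is printed for it. The libraries were made from gastruloids, which are 129/SVEV mouse embryonic stem cells aggregated so that they form an embryo-like body axis. All of them received the Wnt agonist CHIR99021 as a pulse that ended at 72 h, were enclosed in a bioinert dextran hydrogel of 1.0 mM or of 1.5 mM either 72 h or 96 h from seeding, and were collected at 120 h. Each of the 4 groups had 3 replicates, each of them a pool of gastruloids, giving 12 libraries. The higher concentration gives the stiffer gel. Gastruloids grown without gel were not analysed here, so no value below compares a gel with its absence. Gastruloids embedded at 72 h also spent longer in the gel, and the time of embedding and the length of confinement cannot be told apart. In bulk RNA, fewer cells of a type and less RNA per cell cannot be told apart either.

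The 8 genes lie on 7 chromosomes of mm10. *Pax3* (ENSMUSG00000004872) is at chr1:78101267-78197134 and *Eya1* (ENSMUSG00000025932) at chr1:14168954-14310235, both on the minus strand. *Pax7* (ENSMUSG00000028736) is at chr4:139737062-139833528, *Lbx1* (ENSMUSG00000025216) at chr19:45232684-45235812, *Myf5* (ENSMUSG00000000435) at chr10:107482908-107486134 and *Six4* (ENSMUSG00000034460) at chr12:73099609-73113456, all on the minus strand. *Met* (ENSMUSG00000009376) is at chr6:17463800-17573980 and *Myod1* (ENSMUSG00000009471) at chr7:46376474-46379099, on the plus strand.

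*Six4* and *Met* were highest in the same replicate in 3 of the 4 groups, as described below. So were *Six4* and *Eya1*, and *Six4* and *Pax3*, but no RefSeq promoter window was found for *Eya1* or *Pax3*. The sequences just before the gene starts of *Six4* and *Met* are shown. They are the parts of RefSeq promoter windows (GRCm38.p6) that lie outside the gene as the deposited tables bound it, read 5′ to 3′ on the strand of the gene. Capitals mark matches of the GC box GGGCGG and of the CCAAT box.
Met, chr6:17463707-17463799, plus strand: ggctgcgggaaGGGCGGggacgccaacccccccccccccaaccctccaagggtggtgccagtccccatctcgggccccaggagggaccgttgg
Six4, chr12:73113457-73113675, minus strand: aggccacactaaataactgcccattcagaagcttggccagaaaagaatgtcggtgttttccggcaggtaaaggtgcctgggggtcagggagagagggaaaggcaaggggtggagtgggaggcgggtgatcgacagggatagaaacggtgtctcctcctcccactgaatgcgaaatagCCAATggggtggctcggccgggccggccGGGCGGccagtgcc
The *Met* stretch has 93 bases with a GC content of 75.3%, and the *Six4* stretch has 219 bases with a GC content of 60.3%. Each held 1 GC box, and the *Six4* stretch held 1 CCAAT box. On both strands, GGGCGG occurred in 35.7% and CCAAT in 37.4% of all 32851 RefSeq windows of 300 bases. The E-box CANNTG, bound by *Myf5* and *Myod1* and present in 72.3% of windows, the MEF3 motif TCAGGTT, bound by *Six4* and its relatives and present in 4.07%, and the TATA box TATAAA, present in 13.6%, had no match in these stretches, which are shorter than those windows. No matches overlapped each other, and the motifs were chosen after the sequences had been read. The 300-base windows themselves were found for 4 of the 8 genes, and matches further into the gene lie outside the stretches shown. The *Met* window held 2 CANNTG and 3 GGGCGG matches in all, and 1 of the 2 *Six4* windows held a TCAGGTT.

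Total counts were between 23011791 and 27609422 per library, so the limit that a count of 0 allows, 3 counts, was between 0.110 and 0.134 CPM, that is, counts scaled to the library total. Replicates of a group differed by more than sampling noise. On the per-length scale (FPKM, read fragments normalized to transcript length and depth), the mean level over 12 libraries was highest for *Eya1* at 11.8, followed by *Six4* at 6.92, *Pax3* at 5.64, *Met* at 2.69, *Lbx1* at 1.34, *Pax7* at 0.161, *Myf5* at 0.0568 and *Myod1* at 0.0382. This order was not the same in every group. After the 96 h embedding in 1.0 mM gels, *Pax3* (8.68 ± 1.76 FPKM, SD, n = 3) and *Six4* (8.13 ± 0.555 FPKM, SD, n = 3) did not differ beyond their spread. After the 72 h embedding in 1.0 mM gels, *Six4* (5.61 ± 0.904 FPKM) lay above *Pax3* (3.08 ± 0.649 FPKM) in every library. The mean of *Lbx1* was below that of *Met* in every group, at 0.270 ± 0.0758 against 1.84 ± 0.252 FPKM for the 72 h and 2.58 ± 0.757 against 4.06 ± 0.534 FPKM for the 96 h embedding in 1.0 mM gels. After the 96 h embedding in 1.5 mM gels these neighbours overlapped, at 2.32 ± 0.641 and 3.01 ± 0.232 FPKM. The lowest pair, *Myf5* and *Myod1*, overlapped in all groups.

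**Figure D1:**
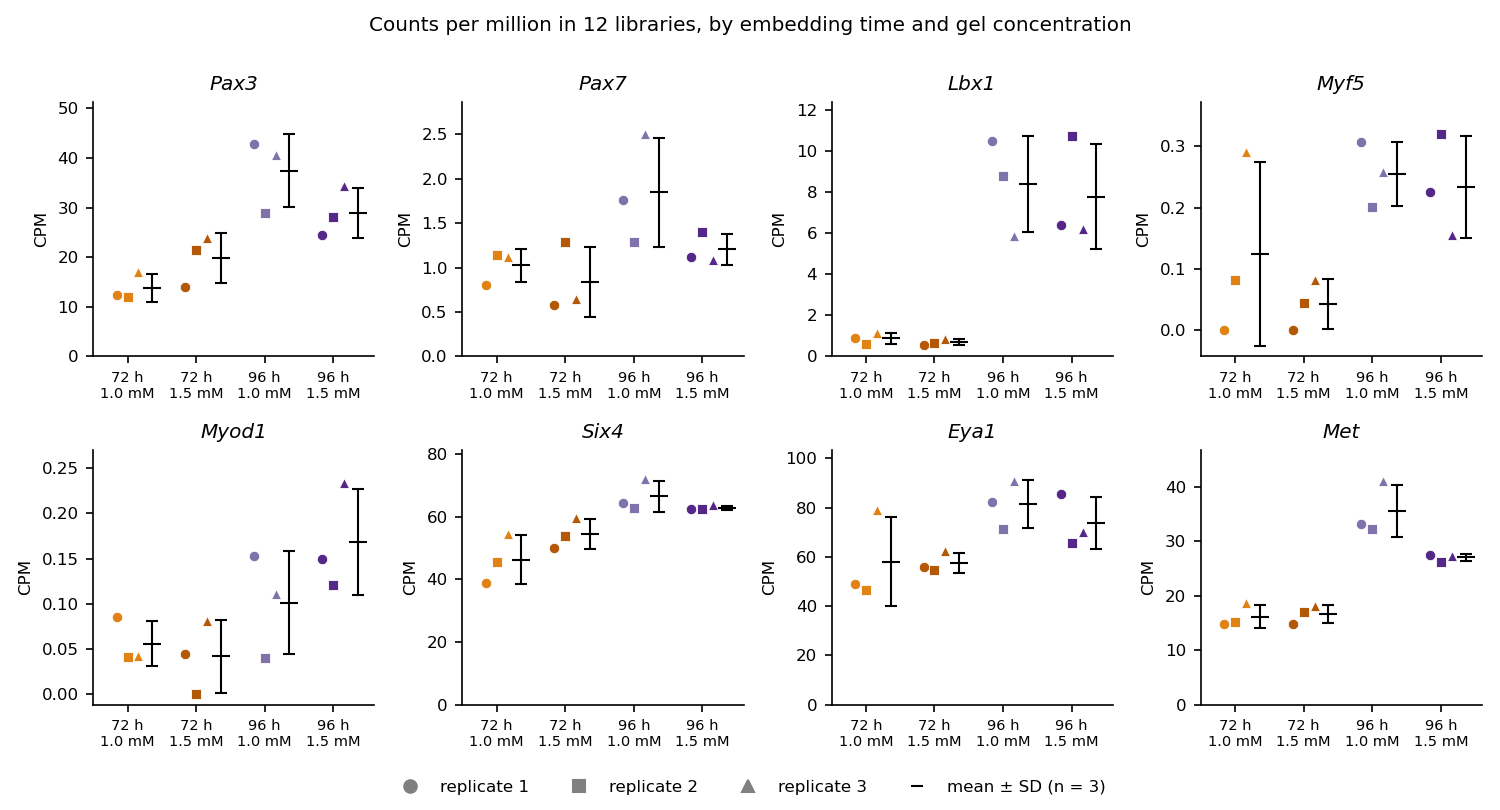
CPM (linear axes with a scale for each gene) of the 8 genes in the 12 libraries, by embedding time and gel concentration. Points are libraries with a symbol for each replicate, and the bars are the mean ± SD (n = 3). *Lbx1* was between 0.578 and 1.12 CPM in the 6 libraries embedded at 72 h and between 5.88 and 10.8 CPM in the 6 embedded at 96 h.

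Of the 8 genes, 6 passed the filter on low counts, and *Myf5* and *Myod1* did not. All 6 were lower after embedding at 72 h than at 96 h in both gels. Genes were called differentially expressed (DE) at an edgeR adjusted p below 0.05 with an absolute log2 fold change above 1. In 1.0 mM gels 3 of the 6 met this rule, *Pax3*, *Lbx1* and *Met*, where 1.69% of all 15763 genes tested met it in the same direction. In 1.5 mM gels 1 of the 6, *Lbx1*, met it, where 1.57% of 15683 genes did. With no fold-change threshold 4 of the 6 in 1.0 mM gels and 3 of the 6 in 1.5 mM gels had an adjusted p below 0.05 and were lower, where 3.27% and 8.98% of all genes did. Because the choice of the genes used this contrast, nothing is read from these counts. The median log2 fold change of the 6 genes was -0.99 in 1.0 mM gels and -0.54 in 1.5 mM gels, against -0.01 over all genes tested in both.

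The largest difference belonged to *Lbx1*, a factor of migrating limb muscle precursors. It had 21, 15 and 27 counts in 1.0 mM gels and 13, 15 and 21 counts in 1.5 mM gels when gastruloids were embedded at 72 h. When they were embedded at 96 h it had 274, 219 and 160 counts in 1.0 mM gels and 171, 268 and 159 counts in 1.5 mM gels. No library of the earlier embedding exceeded 27 counts, and none of the later embedding had fewer than 159. The mean level was 0.875 ± 0.256 against 8.39 ± 2.34 CPM in 1.0 mM gels and 0.699 ± 0.140 against 7.79 ± 2.57 CPM in 1.5 mM gels (SD, n = 3 each). The log2 fold change, 72 h over 96 h, was -3.25 (SE 0.288) in 1.0 mM gels, the 23rd lowest of 15763 genes, and -3.47 (SE 0.294) in 1.5 mM gels, the 8th lowest of 15683.

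*Pax3*, the main paired-box factor of the early dermomyotome, showed a smaller difference. It had 292, 293 and 411 counts after embedding at 72 h and 1118, 722 and 1103 counts after embedding at 96 h within 1.0 mM gels. The counts within 1.5 mM gels were 317, 480 and 587 for the earlier and 651, 698 and 882 for the later embedding. All libraries embedded at 72 h were lower in CPM than all those embedded at 96 h in the same gel, by a narrow gap in 1.5 mM gels, where the levels were 19.8 ± 5.06 and 28.9 ± 5.03 CPM. They were 13.8 ± 2.86 and 37.5 ± 7.43 CPM in 1.0 mM gels. The log2 fold change was -1.43 (SE 0.173) in 1.0 mM gels and -0.55 (SE 0.186) in 1.5 mM gels, where it was -0.36 without replicate 1 of the 72 h embedding. Its relative *Pax7*, which marks the later dermomyotome and muscle progenitors, was low throughout, with 13 to 68 counts per library. Within 1.0 mM gels it had 19, 28 and 27 counts for the earlier and 46, 32 and 68 for the later embedding, which did not overlap in CPM. Within 1.5 mM gels it had 13, 29 and 16 counts, and 30, 35 and 28 counts, and there the embedding times overlapped. The log2 fold change of *Pax7* was -0.85 (SE 0.312) in 1.0 mM gels and -0.53 (SE 0.346) in 1.5 mM gels, where it was -0.97 without replicate 2 of the 72 h embedding.

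The proportion between *Lbx1* and *Pax3* follows from the values above and is part of the same description, not a further result. Measured in FPKM, *Lbx1* reached 10.4%, 7.01% and 8.84% of the *Pax3* level for the 72 h embedding in 1.0 mM gels and 5.66%, 4.39% and 4.36% in 1.5 mM gels. For the 96 h embedding it reached 32.3%, 39.6% and 19.5% in 1.0 mM gels and 36.0%, 53.1% and 23.8% in 1.5 mM gels. In both gels every value of the earlier embedding was below every value of the later one. The proportion of *Met* to *Pax3* was instead higher for the earlier embedding in 1.0 mM gels, with 62.4%, 62.9% and 55.7% against 37.5%, 54.8% and 51.2%. It overlapped in 1.5 mM gels, with 52.9%, 40.3% and 39.2% against 56.7%, 47.6% and 39.2%.

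*Met*, the receptor for hepatocyte growth factor that is needed for precursors to leave the dermomyotome, had 348, 370 and 449 counts for the 72 h embedding and 868, 806 and 1119 counts for the 96 h embedding in 1.0 mM gels. Its counts in 1.5 mM gels were 335, 381 and 447 for the earlier and 735, 655 and 702 for the later embedding. The groups did not overlap, and the highest library embedded at 72 h had fewer counts than the lowest embedded at 96 h across both gels. The log2 fold change was -1.13 (SE 0.133) in 1.0 mM gels, from 35.6 ± 4.83 to 16.2 ± 2.18 CPM, and -0.70 (SE 0.0943) in 1.5 mM gels, from 27.1 ± 0.678 to 16.7 ± 1.64 CPM.

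*Six4* and *Eya1*, which were the most abundant of the 8 genes, differed least. *Six4* had 919, 1116 and 1306 counts for the 72 h embedding and 1681, 1567 and 1962 counts for the 96 h embedding in 1.0 mM gels. With the higher gel concentration it had 1127, 1206 and 1468 counts, and 1664, 1558 and 1635 counts. In CPM the earlier embedding lay below the later one throughout, with log2 fold changes of -0.52 (SE 0.117) and -0.21 (SE 0.0738). *Eya1* had 1153, 1139 and 1894 counts for the earlier and 2147, 1774 and 2470 counts for the later embedding in 1.0 mM gels. Replicate 3 of the earlier embedding lay inside the range of the later one in CPM, so these groups overlapped. With the higher concentration *Eya1* had 1254, 1230 and 1537 counts, and 2282, 1630 and 1801 counts, without overlap. Its log2 fold changes were -0.48 (SE 0.175), or -0.77 without that replicate 3, and -0.36 (SE 0.103). In each gel 5 of the 6 genes were lower in every library embedded at 72 h, all but *Eya1* in 1.0 mM gels and all but *Pax7* in 1.5 mM gels, where 13.8% and 20% of all genes tested were so.

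The muscle-determining factors were near the limit of detection. *Myf5* had 0, 2 and 7 counts for the earlier and 8, 5 and 7 counts for the later embedding in 1.0 mM gels, and 0, 1 and 2 against 6, 8 and 4 counts in 1.5 mM gels. *Myod1* had 2, 1 and 1 against 4, 1 and 3 counts in 1.0 mM gels, and 1, 0 and 2 against 4, 3 and 6 counts in 1.5 mM gels. The embedding times overlapped for both genes in 1.0 mM gels and did not in 1.5 mM gels, where 20% of all genes tested were lower in every library embedded at 72 h. Neither gene was among those tested, and *Myod1* was separated there by only 2 against 3 counts. Nothing is read from this separation. *Myog*, which drives terminal muscle differentiation, had 0 counts in all 12 libraries, and *Myf6* had 0 to 5. The name of early myogenic regulators thus rests on the genes upstream of muscle determination, and the determination factors themselves were scarcely detected at this depth.

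**Figure D2:**
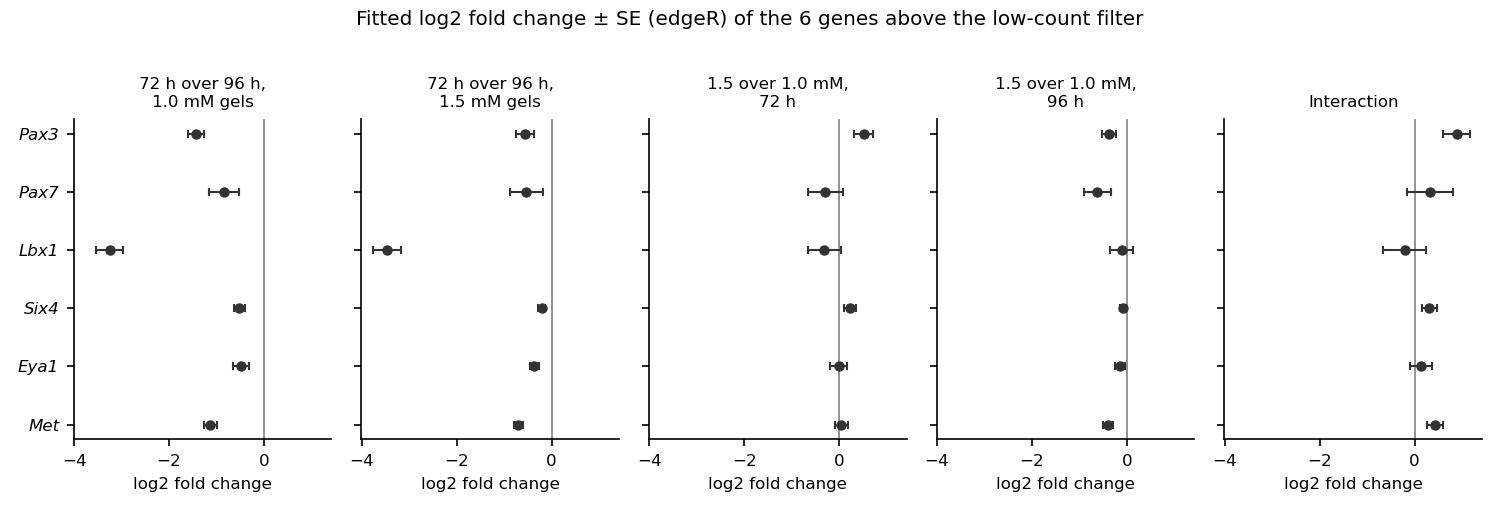
Fitted log2 fold changes (points) with their standard errors (bars) of the 6 genes above the low-count filter, in the embedding-time comparisons of both gels, the gel comparisons at both embedding times, and the interaction, which is the embedding-time log2 fold change in 1.5 mM gels minus that in 1.0 mM gels. *Lbx1* stood at -3.25 and -3.47 in the embedding-time comparisons, and the gel comparisons were all between -0.62 and 0.52.

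Gel concentration was then compared at a fixed embedding time, which asks whether a stiffer gel altered the same genes. None of the 6 genes was DE between 1.5 mM and 1.0 mM gels after embedding at 72 h, where 0% of 15563 genes were called by edgeR and 1074 (6.9%) had an unadjusted p below 0.05. *Pax3* had the largest difference, with a log2 fold change, 1.5 mM over 1.0 mM, of 0.52 (SE 0.205, adjusted p = 0.698, or 0.0366 without the low-count filter), and its libraries overlapped. The others ranged from -0.32 for *Lbx1* (SE 0.345, adjusted p = 0.848) to 0.23 for *Six4* (SE 0.124, adjusted p = 0.715), with *Pax7* at -0.29 (SE 0.370), *Eya1* at -0.01 (SE 0.177) and *Met* at 0.04 (SE 0.136). Leaving out 1 library in turn moved these values widely, from -0.73 to -0.10 for *Pax7*, -0.52 to -0.10 for *Lbx1*, 0.12 to 0.36 for *Six4* and 0.36 to 0.70 for *Pax3*.

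After embedding at 96 h, all 6 genes had negative log2 fold changes between gels, although that of *Lbx1* reached 0.085 with 1 library left out, and none was DE. Here too 0% of 15861 genes were called, with 1578 (9.95%) at an unadjusted p below 0.05. *Met* was lower in 1.5 mM gels by -0.40 on the log2 scale (SE 0.0974), with an edgeR adjusted p of 0.222, and its 3 libraries at 26.3 to 27.6 CPM lay below the 3 in 1.0 mM gels. It was the only one of the 6 whose gel groups did not overlap, where 8.08% of all genes tested lay lower in this way. DESeq2 put the adjusted p of *Met* at 0.0496, edgeR with the replicate block at 0.0219 and the other alternatives between 0.00729 and 0.696, so its side of 0.05 depended on the tool, the filter and the block, while its log2 fold change stayed below 1 in size in all of them. *Pax3* was at -0.37 (SE 0.147, adjusted p = 0.451, or 0.0126 without the low-count filter) and *Pax7* at -0.62 (SE 0.288, adjusted p = 0.504). *Lbx1* (-0.11, SE 0.239), *Six4* (-0.08, SE 0.0688) and *Eya1* (-0.14, SE 0.105) were closer to 0. With 1 library left out *Pax7* ranged from -0.82 to -0.34, *Six4* from -0.12 to -0.020 and *Eya1* from -0.25 to -0.060. With both embedding times in 1 fit and embedding time as a covariate, the log2 fold changes were between -0.47 for *Pax7* and 0.07 for *Six4*, none of the 6 was DE, and 0.0061% of 16388 genes were. An adjusted p above 0.05 does not show that a gene had the same level in both gels.

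The interaction tests whether the difference between embedding times was itself unequal in the 2 gels. It was 0.89 for *Pax3* (SE 0.284), with an unadjusted edgeR p of 0.00697 and an adjusted p of 0.953, and 0.44 for *Met* (SE 0.167), with an unadjusted p of 0.0196 and an adjusted p of 0.953. For *Six4*, *Pax7*, *Eya1* and *Lbx1* it was 0.31, 0.33, 0.13 and -0.21, with standard errors of 0.149, 0.479, 0.235 and 0.453. None of the 6 was called, as none of 16388 genes was (0%), and 708 genes (4.32%) had an unadjusted p below 0.05. The smaller *Pax3* difference in 1.5 mM gels therefore did not pass the test over all genes, except that without the low-count filter its SE was 0.168 and its edgeR adjusted p 7.62e-05. The share of all genes that passed without this filter was not counted, so nothing particular to *Pax3* is read from that value.

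The related genes formed 5 lists of 47 genes in all. These lists, and those of cell types below, were also chosen with earlier results of these data known. Their counts of DE genes and adjusted p-values between embedding times are therefore a description, and nothing is read from the counts. Of these, 34 were tested in 1.0 mM gels and 12 were DE, 7 lower and 5 higher after embedding at 72 h, against 4.3% of all genes. The same number was tested in 1.5 mM gels and 5 were DE, 3 lower and 2 higher, against 3.18%. No related gene was DE in the comparisons of gels or in the interaction.

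Among 11 other transcription factors and receptors of the somite and dermomyotome, 6 of 10 tested fell with the 72 h embedding in 1.0 mM gels by edgeR. The largest fall was that of *Meox2*, a homeobox factor of somites and limb muscle, from 542 to 644 counts after embedding at 96 h to 21 to 64 counts after embedding at 72 h, with a log2 fold change of -3.79 (SE 0.277) and an edgeR adjusted p of 6.73e-05. *Dmrt2* (-2.40, adjusted p = 1.44e-04), *Meox1* (-2.03, adjusted p = 3.01e-04), *Sim1* (-1.80, adjusted p = 6.04e-04) and *Tcf15* (-1.74, adjusted p = 4.67e-04) followed, all of them transcription factors of the somite or its dermomyotome. In 1.5 mM gels 2 of 11 fell by edgeR, *Meox2* (-3.48, adjusted p = 5.46e-04) and *Meox1* (-1.42, adjusted p = 0.00531). Without replicate 1 of the 96 h embedding 4 fell there, *Dmrt2* and *Tcf15* being added, and *Alx4* rose. Without replicate 3 of the 72 h embedding 4 fell, *Tcf15* and *Sim1* being added. *Dmrt2* in 1.5 mM gels (-1.36, SE 0.432, adjusted p = 0.0541) was also called by limma-voom, with the replicate block, with 12 libraries in 1 fit and without the low-count filter. *Ripply1*, a repressor needed for somite segmentation, also fell in 1.0 mM gels (-1.45, adjusted p = 0.00147), and it is named after its values were seen, as are the next genes. *Fgfr4*, a receptor of muscle progenitors, and *Alx4*, a homeobox factor of limb and body-wall mesenchyme, were higher within 1.0 mM gels in every library of the earlier embedding, with 30 to 75 against 16 to 29 and 39 to 117 against 28 to 38 counts. Neither was called by edgeR (1.36, SE 0.393, adjusted p = 0.0550, and 1.11, SE 0.407, adjusted p = 0.125). *Fgfr4* was called by DESeq2, with the replicate block, without the low-count filter and without replicate 3 of the 72 h embedding, and *Alx4* without that filter or without replicate 2 of the 72 h embedding.

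None of 7 other genes listed from the *Six4*, *Eya1* and *Dach1* families was called by edgeR in either gel, nor by DESeq2 or limma-voom, although 1 of them had an unadjusted edgeR p below 0.05 in 1.0 mM gels and 2 did in 1.5 mM gels. Those with the highest mean CPM were *Six2*, a homeobox factor known in nephron progenitors, and *Eya3*, a relative of *Eya1*. *Six2* had 2372 to 3684 counts for the 72 h and 2803 to 3101 counts for the 96 h embedding in 1.0 mM gels. Its log2 fold change by edgeR was 0.20 (SE 0.130, adjusted p = 0.402) there and -0.06 (SE 0.0790, adjusted p = 0.659) in 1.5 mM gels. For *Eya3* the values were 0.06 (SE 0.0767, adjusted p = 0.707) and 0.08 (SE 0.0604, adjusted p = 0.356). The next 2 genes are named after their values were seen. In 1.5 mM gels *Six5* was lower in every library embedded at 72 h (-0.40, SE 0.0943, edgeR adjusted p = 0.0197), and *Dach1* was higher (0.23, SE 0.0876, adjusted p = 0.0934). Within 1.0 mM gels both overlapped, at -0.32 and 0.21.

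Of 6 genes of HGF and MET signalling and precursor migration, 5 were tested and only *Cxcl12*, a chemokine that guides migrating precursors, was DE. It fell in both gels, from 4441 to 5194 counts to 482 to 1260 counts in 1.0 mM gels, where edgeR gave -2.45 on the log2 scale (SE 0.257, adjusted p = 2.70e-04). The log2 fold change of *Cxcl12* with the higher concentration was -1.78 (SE 0.199, adjusted p = 0.00164). *Cxcr4* of the same list, named after its values were seen, was instead higher in every library embedded at 72 h in both gels. Its log2 fold changes by edgeR were 0.83 (SE 0.143, adjusted p = 0.00435) in 1.0 mM gels and 0.44 (SE 0.125, adjusted p = 0.0386) in 1.5 mM gels, below the fold-change threshold. *Hgf*, the ligand of *Met*, had 0 to 7 counts per library and was not tested.

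Of 15 later myogenic regulators and muscle products, 6 were tested and 2 rose after the 72 h embedding in 1.0 mM gels. By edgeR these were *Mef2c* (1.90 on the log2 scale, SE 0.221, adjusted p = 5.15e-04) and *Tcf21* (1.05, SE 0.225, adjusted p = 0.0146). *Mef2c* also rose in 1.5 mM gels (1.14, SE 0.290, adjusted p = 0.0258). Both genes are also active in the heart field and its surrounding mesoderm. The call of *Tcf21* was lost without replicate 1 of the 72 h embedding or replicate 3 of the 96 h embedding, and that of *Mef2c* in 1.5 mM gels without replicate 1 of the 72 h embedding or replicates 2 or 3 of the 96 h embedding. *Mymx*, a small protein of myoblast fusion named after its values were seen, was below the low-count filter. It had 0 to 4 counts for the earlier and 7 to 15 counts for the later embedding in 1.0 mM gels, and 0 to 2 against 8 to 11 counts in 1.5 mM gels, without overlap. *Mymx* was called as lower in 4 of 15 alternatives in 1.0 mM gels and in 2 of 15 in 1.5 mM gels, among them the fit without that filter.

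Among 8 signals that pattern the dermomyotome, 3 rose after the 72 h embedding in 1.0 mM gels. *Shh*, the ventral signal of notochord and floor plate, rose in both gels, by 1.37 (SE 0.129, adjusted p = 1.51e-04) and 1.46 (SE 0.193, adjusted p = 0.00287) on the log2 scale by edgeR. *Nog*, a BMP antagonist, rose in 1.0 mM gels (1.51, SE 0.159, adjusted p = 2.76e-04), as did *Bmp4* (1.26, SE 0.340, adjusted p = 0.0400). *Bmp4* was not called by DESeq2 or without any one of 4 of the 6 libraries, replicates 1 and 2 of the 72 h embedding and replicates 2 and 3 of the 96 h embedding.

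**Figure D3:**
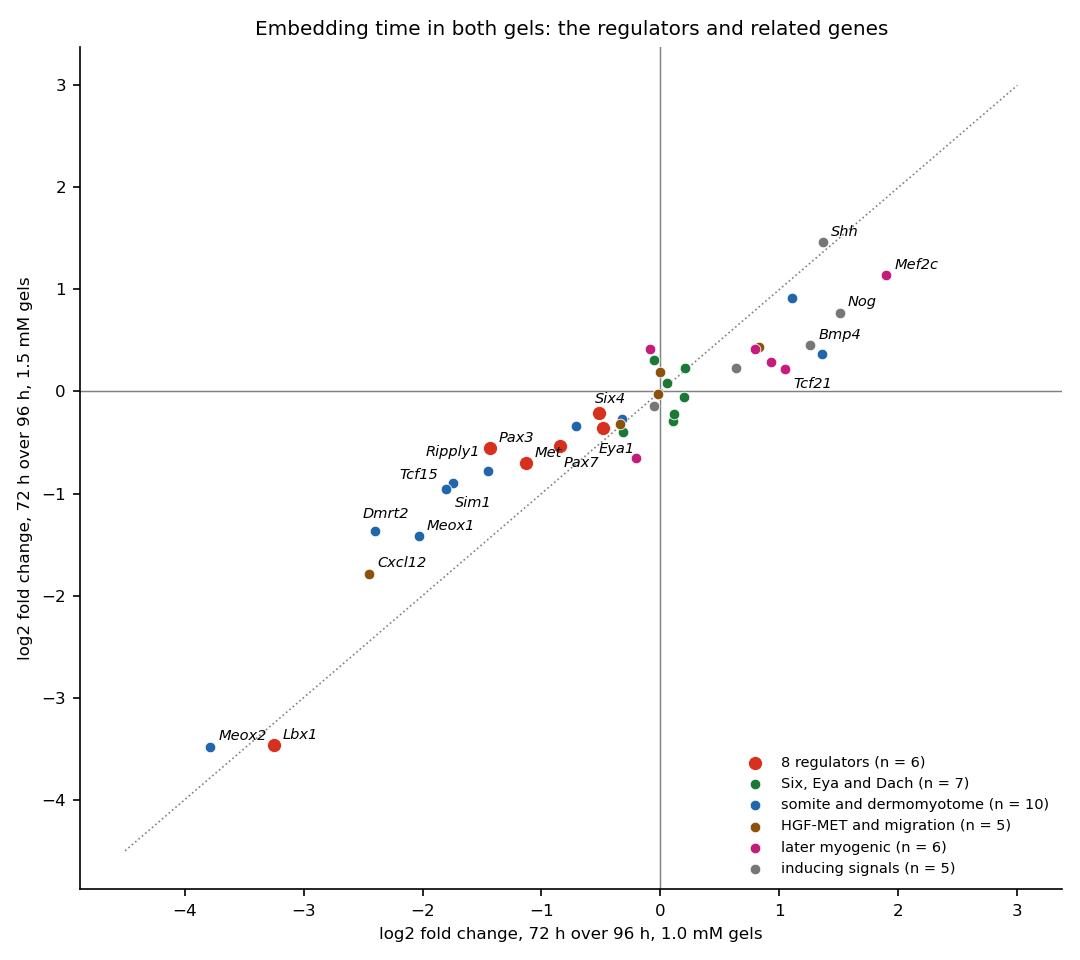
Log2 fold change between embedding times (72 h over 96 h) in 1.0 mM gels (horizontal axis) against 1.5 mM gels (vertical axis) for the genes tested in both, coloured by list. The dotted line marks equal values. *Lbx1* (-3.25, -3.47) and *Meox2* (-3.79, -3.48) lie apart from the rest, and *Pax3* and *Met* lie above the line with most of the somite genes.

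Markers of other cell types moved with embedding time as well. The summed level of 7 cardiac genes was 379 to 796 CPM after embedding at 72 h and 36.7 to 151 CPM after the 96 h embedding in 1.0 mM gels, and 287 to 602 against 141 to 251 CPM in 1.5 mM gels. All 7 cardiac genes rose in 1.0 mM gels, and 3 rose in 1.5 mM gels. The cardiac genes *Myl7* (log2 fold change 2.92), *Tbx20* (2.82), *Tnnt2* (2.61), *Gata4* (2.57) and *Nkx2-5* (2.53) led in 1.0 mM gels. The 72 h libraries with the highest cardiac sums, replicate 1 in each gel with 796 and 602 CPM, also had the lowest *Six4*, *Met* and somite levels of their group. *Pax3* was lowest in that replicate in 1.5 mM gels, at 14.1 against 21.4 and 23.8 CPM, but not in 1.0 mM gels, at 12.4 against 12.0 and 17.1 CPM. After the 96 h embedding the libraries with the highest cardiac sums, replicate 1 in each gel with 151 and 251 CPM, again had the lowest somite sums. There, however, replicate 1 had the highest *Pax3* of its group in 1.0 mM gels (42.9 CPM) and the highest *Met* in 1.5 mM gels (27.6 CPM), and its *Six4* was the lowest in 1.5 mM gels only. The part of the cardiac share in the levels of the 8 genes was not tested.

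The 11 somite and dermomyotome genes summed to 211 to 387 CPM after embedding at 72 h and 729 to 871 CPM after the 96 h embedding in 1.0 mM gels, and to 254 to 456 against 570.1 to 793 CPM in 1.5 mM gels. The 5 sclerotome genes, which mark the ventral somite, summed to 20.9 to 35.6 against 64.4 to 68.1 CPM, and to 29.1 to 42.5 against 52.3 to 70.3 CPM. Of these 5, *Tbx18*, *Uncx* and *Pax1* fell in 1.0 mM gels (log2 fold changes -1.67, -1.51 and -1.41), and *Pax1* and *Tbx18* fell in 1.5 mM gels (-1.54 and -1.12). The part of a change in all somite cells in the levels of the 8 genes was not tested.

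*Pax3*, *Pax7* and *Lbx1* are also genes of the dorsal neural tube. The 16 neural tube genes summed to 166 to 189 CPM after embedding at 72 h and 85.9 to 108 CPM after the 96 h embedding in 1.0 mM gels, and to 183 to 204 against 116 to 191 CPM in 1.5 mM gels, where they overlapped. In 1.0 mM gels these sums rested mainly on *Irx3* and *Msx1*. The mean of *Irx3* was 83.1 CPM for the earlier and 52.2 CPM for the later embedding there, and that of *Msx1* 42.9 and 14.8 CPM. Of 10 tested in 1.0 mM gels, 4 rose, *Lmx1a* (2.02), *Msx1* (1.54), *Pax6* (1.24) and *Tubb3* (1.02), and *Olig2* fell, from 13, 21 and 21 counts to 0, 0 and 1. Of 9 tested in 1.5 mM gels, 1 rose, *Lmx1a* (2.16). Factors known from dorsal interneurons and their progenitors differed in level, with *Ptf1a* at 0 to 2, *Gsx1* at 0 to 5, *Olig3* at 0 to 9, *Tlx3* at 1 to 8, *Pax2* at 8 to 30 and *Lmx1b* at 112 to 264 counts per library. *Lmx1b* had 233 to 264 counts for the earlier and 153 to 229 for the later embedding in 1.0 mM gels, and 173 to 197 against 112 to 174 counts in 1.5 mM gels. In both groups embedded at 96 h, the library with the highest *Lbx1* was also the one with the highest neural tube sum. In 1.5 mM gels this was replicate 2, where *Msx1* alone made up 90.0 of the 191 CPM. The match in that group, and the overlap of the embedding times in 1.5 mM gels, thus rested on this gene. In both groups embedded at 72 h it was not, as *Lbx1* was highest in replicate 3 and the neural tube sum in replicate 1 (189 CPM, 1.0 mM gels) or replicate 2 (204 CPM, 1.5 mM gels). Of 7 neural crest genes 5 were tested, of which *Foxd3* (-1.84) and *Ets1* (-1.17) fell and *Tfap2a* (1.46) rose in 1.0 mM gels, and *Foxd3* (-1.99) fell in 1.5 mM gels. Over both gels the neural crest genes summed to 86.8 to 138 CPM for the earlier and 166 to 223 CPM for the later embedding. *Ets1* alone made up 45.9 to 89.2 and 114 to 175 CPM of these sums, so their difference rested mainly on this gene. *Snai2*, the next in level, was instead higher in every library of the earlier embedding with the lower gel concentration (0.45). With the higher concentration *Snai2* overlapped (-0.10). The sums therefore do not show that the neural crest genes fell as a group. *Sox10*, their defining marker, had 0 to 4 counts. The 7 endoderm genes summed over both gels to 321 to 485 CPM for the earlier and 354 to 507 CPM for the later embedding, and none was DE in either gel, *Trh* and *Cldn6* having the highest levels. The part of neural cells in the levels of *Pax3* and *Lbx1* was not tested.

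**Figure D4:**
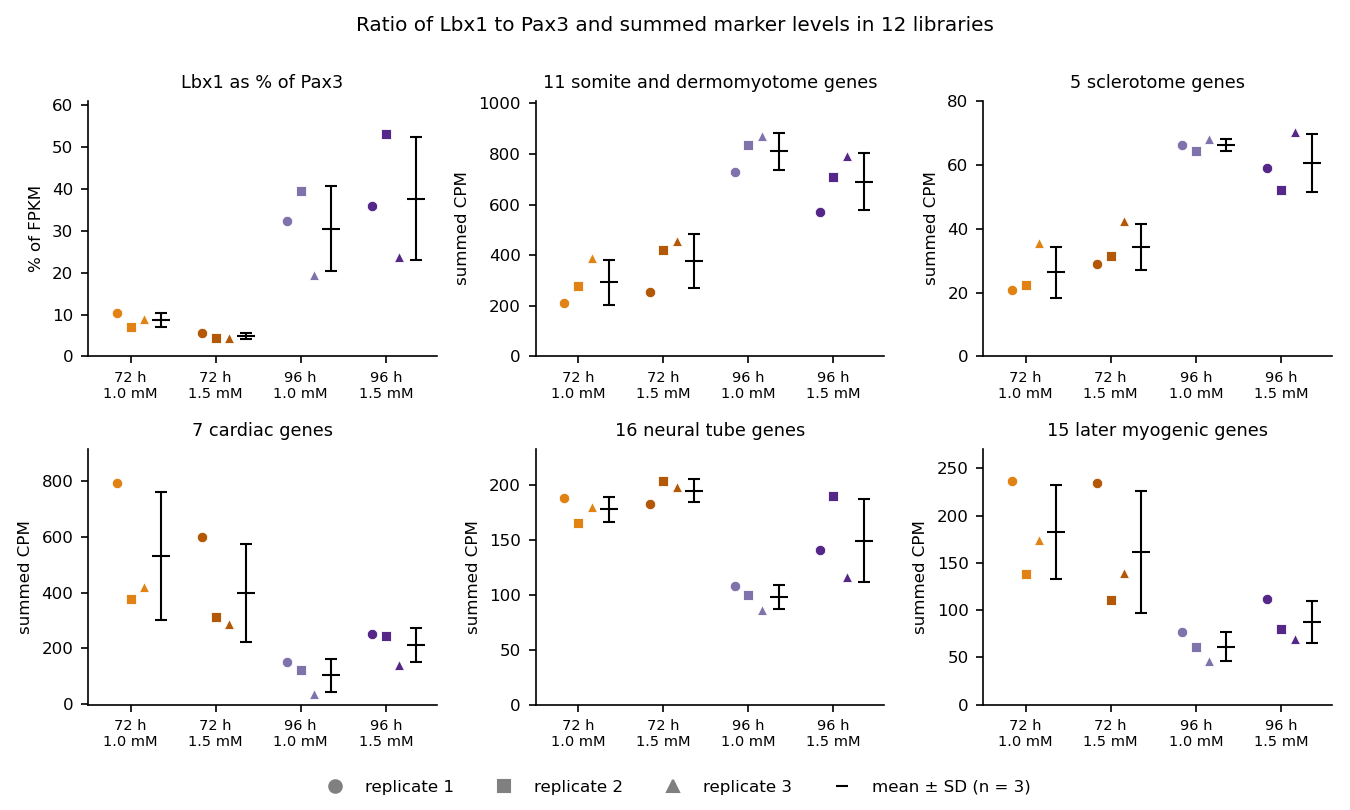
*Lbx1* as a percentage of *Pax3* in FPKM, and summed CPM of the genes of 5 lists, in the 12 libraries by embedding time and gel concentration. Points are libraries and bars are the mean ± SD (n = 3). The somite, sclerotome and cardiac sums did not overlap between embedding times, the first pair being lower and the cardiac sum higher after embedding at 72 h. A sum of the later myogenic genes rests mainly on *Mef2c*, *Des* and *Tcf21*, with means of 90.9, 21.3 and 7.11 CPM over the 12 libraries. No other gene of that list had a mean above 1.55 CPM. This sum therefore does not show that the later myogenic genes changed as a group.

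Within the groups *Pax3*, *Six4*, *Eya1*, *Met* and *Lbx1* did not vary as a single block. *Pax7*, *Myf5* and *Myod1*, with lower counts, were not correlated in this way. With group means taken out, the correlation (r) of log2 CPM over the 12 libraries was 0.491 to 0.888 between *Pax3*, *Six4*, *Eya1* and *Met*, with no test. Between *Lbx1* and each of these genes r was 0.00276 to 0.322. The *Lbx1* values rest on only 13 to 27 counts per library for the 72 h embedding. *Six4* was highest in replicate 3 of all 4 groups. *Met* and *Eya1* were highest in replicate 3 of 3 groups and in replicate 1 of the 96 h embedding in 1.5 mM gels, and *Pax3* was highest in replicate 3 of 3 groups and in replicate 1 of the 96 h embedding in 1.0 mM gels. *Lbx1* was lowest in replicate 3 in both groups embedded at 96 h. The coefficient of variation within a group, from CPM, was between 1.12% and 16.7% for *Six4*, between 2.50% and 13.6% for *Met*, and between 20.0% and 33.1% for *Lbx1*. For *Pax3* it was between 17.4% and 25.6%, for *Eya1* between 7.15% and 31.0%, and for *Pax7* between 14.3% and 46.8%.

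For the 5 of the 8 genes whose mean reached 100 counts, the genes most like them were found by Pearson's r of log2 CPM over the 12 libraries, among 11337 genes, with no test. For *Lbx1* these were *Meox2* (r = 0.970), *Hoxd3* (0.968) and *Dppa4* (0.968). Once the 4 group means were taken out, r fell to 0.381, 0.486 and -0.01, so the likeness to *Lbx1* lay mainly between groups. For *Pax3* they were *Lmnb2* (0.972), *Lrig1* (0.970) and *Dclk2* (0.957), and within groups r was 0.889, 0.875 and 0.839. For *Six4* they were *Ctnna2* (0.977), *Nefl* (0.957) and *Foxd2* (0.957), with 0.961, 0.856 and 0.889 within groups. For *Eya1* they were *Nrep* (0.981), *Fbxl7* (0.956) and *St8sia4* (0.951), with 0.959, 0.920 and 0.913 within groups. For *Met* they were *Cd36* (0.977), *Gli2* (0.975) and *Selenop* (0.975), with 0.840, 0.767 and 0.873 within groups. These values share the libraries and their depth, and they describe likeness of pattern only.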

How the data were processed

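RNA was poly-A selected from pools of gastruloids and sequenced from stranded libraries. The authors trimmed reads with cutadapt 4.4, aligned them to mm10 with STAR 2.7.10b and deposited raw counts per gene for 55141 genes. The strand setting of the counting is not given in the sources used here. The authors computed the deposited FPKM values with Cufflinks 2.2.1.3. A deposited table of the authors' pairwise DESeq2 tests holds fold changes and adjusted p-values and was not used. The 36 mitochondrial genes were left out, as in the authors' methods.

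Counts were fitted over all genes with edgeR 4.0.16 (R 4.3.3) after TMM normalization and filterByExpr (minimum count 10, minimum total 15), with the quasi-likelihood F test and Benjamini-Hochberg adjustment over all genes tested. A gene was called where the adjusted p was under 0.05 and the log2 fold change exceeded 1 in size. For CPM the library size was the summed counts of genes above the low-count filter, without mitochondrial genes, multiplied by the TMM factor. Each pair of groups was fitted alone, and gel concentration with embedding time and the interaction were fitted on 12 libraries. Alternatives used limma 3.58.1, DESeq2 1.42.0, other scalings and filters, log2(FPKM + pseudocount) with 1 or 0.1, a replicate block, and each library left out. The fit was tested on simulated data. Replicates carry numbers in the labels, and p-values measure the spread between these pools. The SE of an edgeR log2 fold change is its size divided by the square root of the F statistic. SD and SE include the spread between pools, and the limit for a count of 0 covers counting error only.

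The 8 genes and the other lists were chosen with earlier results of these data known. Some genes are not reported here and were left out of the lists and of the search for genes of like pattern, though not of the fits. All 8 are named. From each other list the called genes are named when 5 or fewer, otherwise the 5 with the largest change, and for a list with none called the 2 with the highest mean CPM. The 3 genes most like each of the 8 with a mean of 100 counts or more are named by Pearson's r.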

Additional observations from a re-analysis of the deposited data

How the results depend on the processing

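The number of the 8 genes called, 3 in 1.0 mM gels and 1 in 1.5 mM gels between embedding times and 0 elsewhere, was the same under each tool, scaling, filter and left-out library. The counts between embedding times remain a description, because the choice of the genes used that contrast. With no fold-change threshold it was 3 in 1.5 mM gels (*Lbx1*, *Eya1* and *Met*), and 9 related genes were called there. Without the low-count filter 1 related gene (*Dmrt2*) was called in the interaction. Leaving out each library in turn gave 10 to 14 related genes in 1.0 mM gels and 4 to 8 in 1.5 mM gels, the 8 without replicate 1 of the 96 h embedding. All embedding-time changes of the 6 genes kept their sign in every alternative. On log2(FPKM + 1) the change of *Lbx1* was -1.47 and -1.45. Small gel differences turned sign: *Eya1* at the 72 h embedding was 0.029 with limma-voom and 0.025 with the replicate block, and *Pax3* over both embedding times was -0.042 with limma-voom. With 1 library left out, the gel differences ranged from -0.024 to 0.16 for *Met* and -0.15 to 0.27 for *Eya1* at the 72 h embedding, from -0.41 to 0.085 for *Lbx1* at the 96 h embedding, and from -0.064 to 0.16 for *Pax3* and -0.15 to 0.032 for *Eya1* over both. The interaction ranged from -0.0090 to 0.41 for *Eya1*, -0.42 to 0.081 for *Lbx1* and -0.11 to 0.52 for *Pax7*. The cause was not tested. Without the low-count filter the adjusted p of *Pax3* was 0.0366 and 0.0126 between gels and 7.62e-05 in the interaction, where its SE fell from 0.284 to 0.168, and that of *Met* after embedding at 96 h was 0.00729. The share of all genes that passed in these unfiltered fits was not counted. Libraries of the same replicate number deviated together from their group means with r between 0.0365 and 0.313 over 18 pairs, 13 of them over 0.1, against -0.262 to 0.111 over 36 other pairs, and all 12 libraries were closest to their own number, as a hint from the data. The numbers were not taken as a pairing. With the replicate block the 8 genes kept 3 and 1 calls, 13 and 6 related genes were called, and *Met* between gels after embedding at 96 h had an adjusted p of 0.0219. Depth limits what can be said of *Myf5*, *Myod1* and *Pax7*.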
